A study of Mus musculus with 12 samples.

Results

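The B cell development genes described here are 33 genes of the 55421 in the deposited count table, listed by symbol as genes of pro-B, pre-B and mature B cells and matched to their Ensembl identifiers. The rule used their names and no measured value, but the list was drawn up with earlier results of these data known. All 33 were found. Of the 33, 8 mark early stages (*Vpreb1*, *Vpreb2*, *Vpreb3*, *Igll1*, *Rag1*, *Rag2*, *Dntt* and *Il7r*) and 6 mark mature cells (*Ms4a1*, *Cr2*, *Fcer2a*, *Bank1*, *Tnfrsf13c* and *Cd22*). Another 9 are used by B cells from early to mature stages (*Ebf1*, *Pax5*, *Cd79a*, *Cd79b*, *Blnk*, *Blk*, *Pou2af1*, *Cd72* and *Fcrla*), and 10 are also used by other marrow cells (*Foxo1*, *Tcf3*, *Ikzf3*, *Lef1*, *Sox4*, *Bach2*, *Btk*, *Syk*, *Cd24a* and *Cd37*).

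RNA was sequenced from cells sorted as bone marrow endothelium from 12 C57BL/6J mice aged 20 weeks, 1 library per mouse and 3 mice in each of 4 groups. Controls were naive, hypertensive mice (HTN) received angiotensin II chronically, atherosclerotic mice (ApoE) carried the Apoe(tm1Unc) knockout and ate a western diet, and mice with MI were taken 2 days after infarction per the labels, while the study's text gives a later day. Before sorting, marrow was depleted with antibodies against blood lineages that included B220 and CD127, the product of *Il7r*, and the gate then kept cells without TER-119, CD41 and CD45 and with CD31 and SCA-1. The ApoE mice lack *Apoe* in every cell, so the knockout and the diet cannot be told apart. Per the study's text, MI was made by surgical ligation of a coronary artery, and angiotensin II came from implanted minipumps. Operated mice received buprenorphine around surgery, while the controls were naive. Infarction thus cannot be told apart from the recent operation and its analgesic, nor angiotensin II from the implantation.

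B cells form in the marrow, where progenitors commit under the transcription factors E2A (*Tcf3*), EBF1 and PAX5 and need the interleukin-7 receptor to survive and divide. Pro-B cells join gene segments of the antibody heavy chain with the recombinase RAG1 and RAG2, and terminal transferase (*Dntt*) adds bases at the joints. The finished heavy chain is tested in pre-B cells with the surrogate light chain, built from VPREB and IGLL1. CD79A and CD79B hold this complex at the membrane. Immature cells later leave the marrow, and mature B cells carry CD20 (*Ms4a1*), CD21 (*Cr2*) and CD23 (*Fcer2a*).

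Library totals were between 17007088 and 25136936 counts. Levels are given as CPM, the count scaled to library size, after TMM normalization, and 3 counts, the smallest amount taken as measured, stood for 0.116 to 0.176 CPM. *Apoe*, the deleted gene, read 7.28 to 14.8 CPM in the ApoE libraries and 450.5 to 1503 CPM in the other 9. The 12 endothelial markers, with none at 0, summed to 137 to 261 CPM (*Cdh5*, 2.00 to 4.19 CPM), against 33359 to 95619 CPM for 10 neutrophil genes, so RNA of blood cells was far more abundant than that of endothelium. *Ptprc*, which encodes both CD45 and B220, targets of the gate and the depletion, read 463 to 814 CPM. In such mixed RNA, fewer cells of a type and less RNA per cell cannot be told apart. Libraries carry the replicate numbers 2, 3 and 4, and values of a group are given in that order. Of the libraries, MI 2 held the lowest value for 25 of the 33 genes and for 16.7% of all genes tested, and ApoE 2 and HTN 4 stood apart in *Ebf1* and *Pax5*, so results that rest on them are given with and without them.

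*Vpreb1* and *Vpreb2* encode nearly the same V-like part of the surrogate light chain and lie on chromosome 16 (GRCm38, chr16:16868403-16870843 on the minus strand and chr16:17980428-17981273 on the plus strand). Their coding sequences, 429 bases each in the GENCODE M21 transcripts, differ at 9 bases (97.9% identity) and at 4 of 142 amino acids. A stretch of 100 bases, coding positions 279 to 378, is printed because it holds 5 of those differences, which are in capitals and show how few bases separate a read of one gene from a read of the other.
Vpreb1: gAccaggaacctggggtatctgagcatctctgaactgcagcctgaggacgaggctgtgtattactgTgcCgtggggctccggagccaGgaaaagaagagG
Vpreb2: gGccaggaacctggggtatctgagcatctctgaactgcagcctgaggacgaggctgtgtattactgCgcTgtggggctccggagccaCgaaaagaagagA
Of 380 windows of 50 bases, the read length, 162 (42.6%) were the same in both coding sequences. STAR, which made the counts, counts a read for a gene only where it maps to 1 place, so reads from such windows do not enter the counts of either gene, and the level of each is uncertain.

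Levels of different genes were set side by side per kb of exon sequence, as the median CPM per kb over 12 libraries. *Cd24a*, a surface protein that many marrow cells carry, was the highest at 294 CPM per kb (225 to 438). *Cd79b*, a signalling chain of the B cell receptor, followed at 94.7 (60.6 to 127), then *Tcf3* at 71.4 (43.7 to 108), *Vpreb3* at 65.7 (26.3 to 133) and *Cd79a*, the other signalling chain, at 60.1 (24.8 to 81.2). *Cd79b* was above *Cd79a* in 12 of 12 libraries, while the other pairs of these 4 genes kept the order of their medians in 9 to 11 of 12. The recombinase genes stood near the bottom, *Rag2* at 0.810 (0.161 to 1.39) and *Rag1* at 0.432 (0.159 to 1.01), and *Cr2* was last at 0.289 (0.101 to 0.433). All 33 genes were above 3 counts in each library, the least being 6 counts of *Vpreb2* in MI 2, and all 33 passed the filter on low counts.

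**Figure D1:**
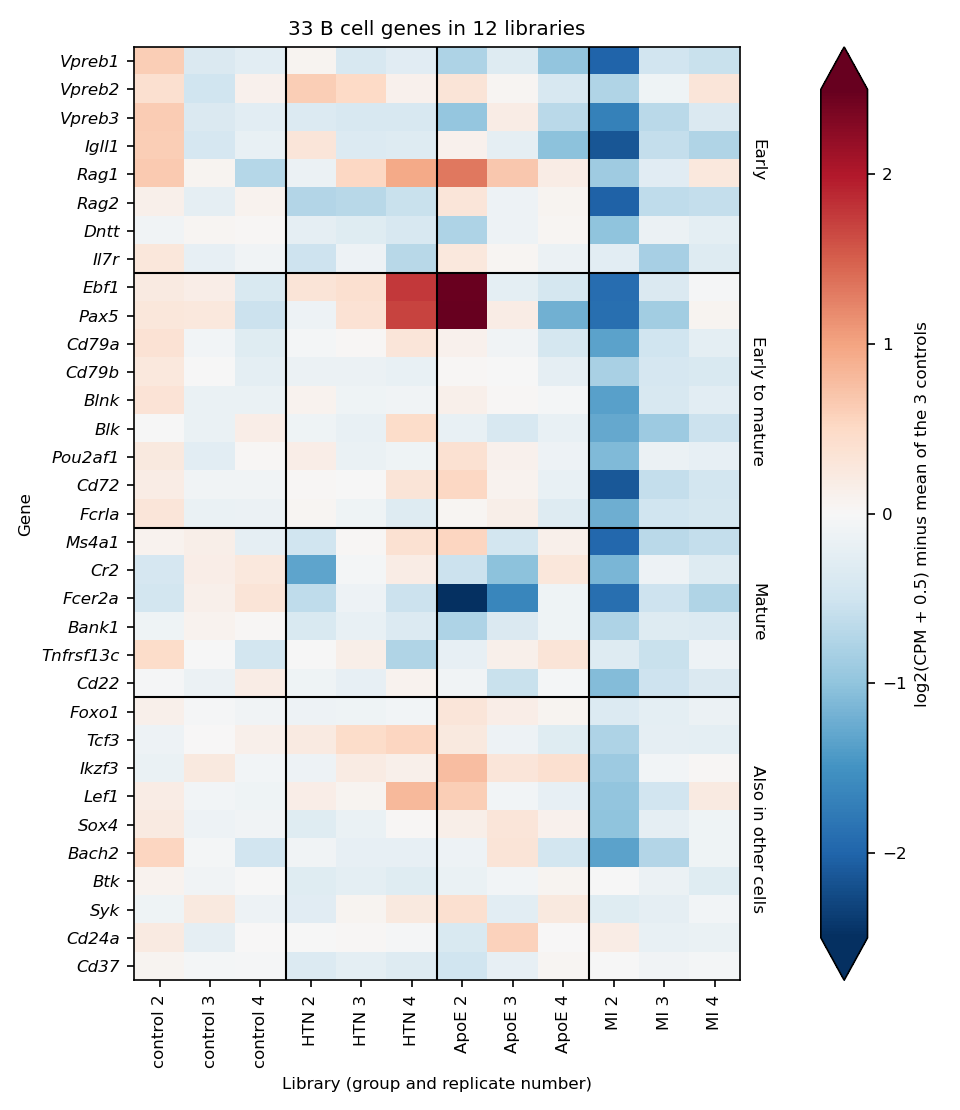
Difference of log2(CPM + 0.5) from the mean of the 3 controls (color) for the 33 genes (rows, by stage) in the 12 libraries (columns, by group and replicate number). MI 2 is the column with the lowest value for 25 genes, and *Ebf1* and *Pax5* stand out in HTN 4 and ApoE 2.

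After MI, all 33 genes had a log2 fold change below 0 against controls, where 50% of all 15999 genes tested did. The median was -0.54 over the 33 genes and 0.00 over all genes. In 16 of the 33 genes each MI library was below each control, against 4.59% of all genes, and in 0 each was above, against 4.27%. None of the differences passed the test across all genes: the quasi-likelihood test of edgeR, adjusted by Benjamini and Hochberg, called 0 of 33 (0% of all genes), the likelihood-ratio test called 0 (0.00625% of all genes) and DESeq2 called 0 (0.00626% of the genes to which it gave an adjusted p). DESeq2 gave *Ebf1* no adjusted p in any of the 6 comparisons. At an unadjusted p under 0.05, 15 of the 33 were lower (1.57% of all genes) and 0 higher (1.23% of all genes).

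MI 2 carried a large part of the size. The median difference from the control mean over the 33 genes was -1.07 in MI 2, -0.41 in MI 3 and -0.25 in MI 4, and 32, 33 and 28 of the genes were below the control mean in these libraries. Without MI 2 the median fold change was -0.36, 32 genes were lower, 18 did not overlap (9.89% of all genes) and 7 had an unadjusted p under 0.05 (0.907% of all genes). Without control 2, the library with the highest value for 12 of the genes, the median was -0.45, 30 genes were lower, 17 did not overlap (13.2% of all genes) and 7 had an unadjusted p under 0.05 (1.91% of all genes).

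Among the early genes, *Igll1*, the J-like part of the surrogate light chain, read 62.6, 29.9 and 35.3 CPM in controls and 8.83, 26.8 and 23.8 CPM in MI. Its groups did not overlap, and the log2 fold change was -1.10 (SE 0.41, unadjusted p = 0.0176, adjusted p = 1.00, edgeR quasi-likelihood). *Vpreb1* read 16.2, 8.01 and 8.57 CPM in controls and 2.21, 7.30 and 6.95 CPM in MI, again without overlap (log2 fold change -0.99, SE 0.40). *Vpreb3*, a related chain of pre-B cells, read 115, 57.1 and 61.3 CPM in controls and 22.6, 46.3 and 57.1 CPM in MI (log2 fold change -0.89, SE 0.36). MI 4 reached the lowest control for *Vpreb3*, and control 2 was far above the other controls for all 3 of these genes. *Vpreb2* read 1.35, 0.487 and 1.01 CPM in controls and 0.331, 0.794 and 1.22 CPM in MI, with groups that overlapped (log2 fold change -0.28, SE 0.50).

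*Rag2* read 4.15, 3.14 and 4.03 CPM in controls and 0.552, 2.22 and 2.32 CPM in MI, a log2 fold change of -1.15 (SE 0.40, unadjusted p = 0.0120, adjusted p = 1.00, edgeR quasi-likelihood). *Rag1* read 4.04, 2.49 and 1.24 CPM in controls and 1.05, 1.85 and 2.95 CPM in MI (log2 fold change -0.40, SE 0.51). The MI libraries were below each control for *Rag2* and within the controls' range or just under it for *Rag1*. Both lie inside *B230118H07Rik*, *Rag1* on the same strand and *Rag2* on the opposite one. That gene had 6890 counts against 758 of *Rag1* and 713 of *Rag2*. Which strand the counting used is not given in the sources used here, and for *Rag1* no strand setting would separate the genes. Reads of the shared stretches are thus uncertain.

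*Dntt* read 28.5, 31.4 and 31.1 CPM in controls and 14.7, 27.1 and 25.4 CPM in MI (log2 fold change -0.44, SE 0.23). *Il7r* read 33.2, 23.6 and 25.5 CPM in controls and 22.7, 15.0 and 21.5 CPM in MI (log2 fold change -0.48, SE 0.21, unadjusted p = 0.0414, adjusted p = 1.00, edgeR quasi-likelihood). Neither overlapped between the groups. *Il7r* was one of the few members for which MI 2 was not the lowest MI library, and its product was a target of the depletion.

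Of the genes used from early to mature stages, *Blk*, a Src-family kinase of B cells, had the smallest p of the 33. It read 13.2, 11.8 and 14.8 CPM in controls and 5.13, 6.83 and 8.92 CPM in MI, so that each MI library was below each control. The log2 fold change was -0.93 (SE 0.24, unadjusted p = 0.00166, adjusted p = 1.00 by the quasi-likelihood and 0.467 by the likelihood-ratio test of edgeR), and -0.75 without MI 2. *Cd79a* read 118, 88.4 and 75.0 CPM in controls and 36.1, 65.1 and 77.8 CPM in MI, and MI 4 lay above the lowest control (log2 fold change -0.65, SE 0.26). *Cd79b* read 182, 151 and 129 CPM in controls and 86.7, 114 and 117 CPM in MI, without overlap (log2 fold change -0.54, SE 0.17). *Cd72*, an inhibitory receptor, *Fcrla*, an Fc receptor-like protein, and *Blnk*, the adaptor below the B cell receptor, did not overlap either, with log2 fold changes of -0.90 (SE 0.33), -0.70 (SE 0.22) and -0.63 (SE 0.24).

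For *Ebf1* and *Pax5* the difference was smaller than its SE, which came from the fit of all 12 libraries. Both genes were high in ApoE 2 and HTN 4, which entered that fit. *Ebf1* read 110, 106 and 72.7 CPM in controls and 25.1, 74.0 and 93.3 CPM in MI (log2 fold change -0.58, SE 0.69). *Pax5* read 42.9, 41.9 and 23.9 CPM in controls and 9.05, 19.0 and 36.7 CPM in MI (log2 fold change -0.75, SE 0.77). The groups overlapped for both.

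Of the mature genes, *Ms4a1* read 43.2, 44.998 and 34.7 CPM in controls and 10.05, 25.2 and 26.7 CPM in MI, without overlap (log2 fold change -0.99, SE 0.34, unadjusted p = 0.0133, adjusted p = 1.00, edgeR quasi-likelihood). *Fcer2a* read 4.99, 7.69 and 8.96 CPM in controls and 1.55, 4.76 and 3.94 CPM in MI (log2 fold change -1.08, SE 0.59), and *Cd22*, an inhibitory lectin, was also lower in each MI library (log2 fold change -0.66, SE 0.23). *Bank1* read 25.5, 29.2 and 28.2 CPM in controls and 16.0, 21.9 and 21.7 CPM in MI, again without overlap. *Cr2* read 1.96, 3.19 and 3.45 CPM in controls and 0.994, 2.54 and 2.14 CPM in MI, and overlapped. Its log2 fold change was -0.60 (SE 0.53).

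The 10 genes grouped here as also used by other marrow cells differed least, a grouping that was chosen and not measured. Their median log2 fold change was -0.26, against -0.68 for the early, -0.65 for the early to mature and -0.63 for the mature genes, and without MI 2 these medians were -0.19, -0.59, -0.39 and -0.43. In this group each MI library was below each control for 2 of 10 genes, *Tcf3* and *Foxo1* (4.59% of all genes). *Cd24a* and *Cd37*, a tetraspanin of many leukocytes, had log2 fold changes of -0.06 and -0.05. The others of this group were *Bach2*, a repressor that guards B cell identity (-0.71, SE 0.31), *Sox4* (-0.41, SE 0.21) and *Lef1* (-0.35, SE 0.32), factors of early progenitors, *Ikzf3* (-0.28, SE 0.24), and the kinases *Syk* (-0.20, SE 0.20) and *Btk* (-0.15, SE 0.13). *Pou2af1*, a coactivator of B cells, and *Tnfrsf13c*, the receptor for the survival factor BAFF, overlapped at -0.45 (SE 0.24) and -0.39 (SE 0.29). In the early, early to mature and mature groups 5 of 8, 5 of 9 and 4 of 6 were lower without overlap, against 4.59% of all genes.

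**Figure D2:**
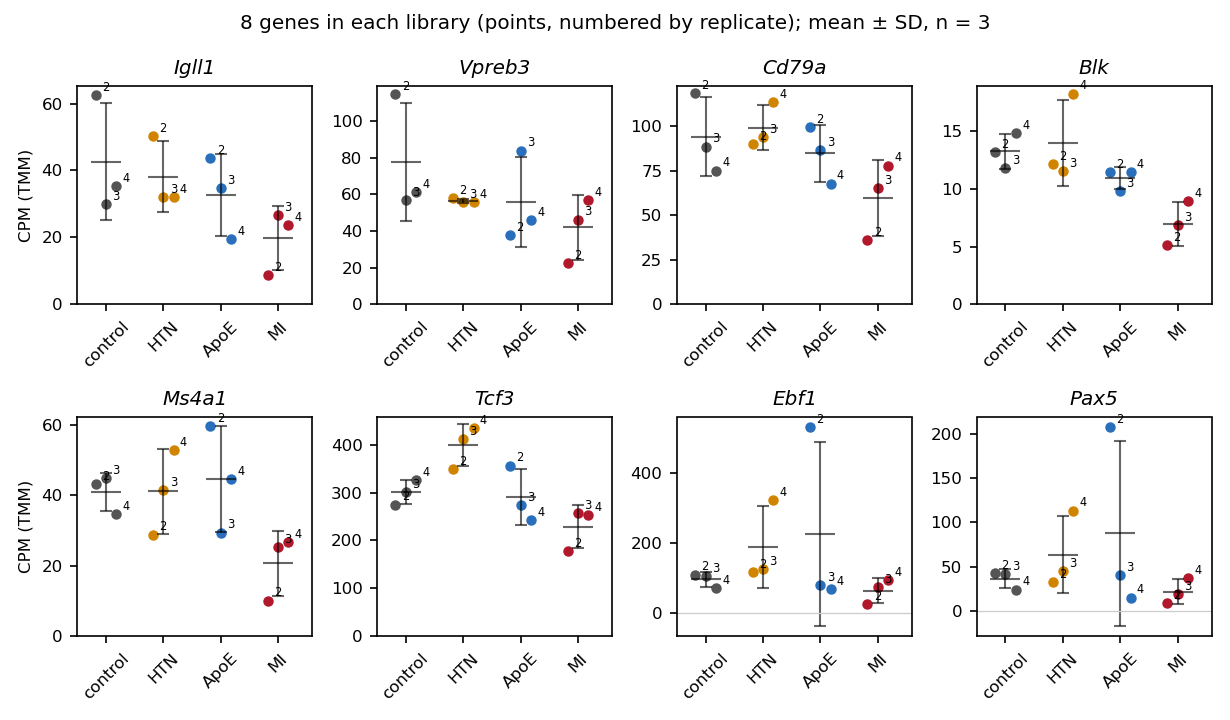
TMM-scaled CPM of 8 genes in each library (points with replicate numbers) with the group mean ± SD (n = 3), on linear axes of different range. The SD bar of *Ebf1* and *Pax5* in ApoE runs below 0 because of 1 high library. MI libraries are below each control for *Igll1*, *Blk*, *Ms4a1* and *Tcf3*, and ApoE 2 and HTN 4 are the 2 highest for *Ebf1* and *Pax5*.

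Sums over marker genes of other cells were read beside these. The sum of 6 plasmacytoid dendritic cell genes was 179 to 328 CPM in MI and 363 to 385 CPM in controls. Of its genes, *Siglech*, *Ccr9* and *Spib*, which is also a B cell gene, did not overlap, while *Bst2*, *Irf7* and *Tcf4* did. The sum of 6 progenitor genes was 127 to 138 CPM in MI and 115 to 124 CPM in controls, though each of its genes overlapped. The 10 neutrophil genes summed to 62437 to 95619 CPM in MI, highest in MI 2, and to 57443 to 79106 CPM in controls, with overlap. The 12 T and NK cell genes (469 to 730 CPM in MI, 556 to 828 CPM in controls) and the 6 plasma cell genes (957 to 2253 CPM in MI, 937 to 1257 CPM in controls) overlapped. *Nkg7* made up most of the T and NK cell sum (420 to 653 CPM in MI, 467 to 732 CPM in controls). Of the other genes in that list, *Cd4*, *Cd8b1* and *Lck* were lower in each MI library than in each control, and the rest overlapped. No gene of these lists was at 0 in any library, and their part in the lower B cell genes was not tested.

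In hypertension, 21 of the 33 genes were lower than in controls (51.9% of all genes) and the median log2 fold change was -0.11, against -0.01 over all genes. Without control 2 the median was 0.04 and 15 genes were lower, and without HTN 3 it was -0.05. Each HTN library was below each control for 5 genes (7.81% of all genes) and above for 2, *Ebf1* and *Tcf3* (9.02% of all genes). The quasi-likelihood and likelihood-ratio tests of edgeR called 0 of 33 (0% of all genes for both), DESeq2 called 0 (0% of all genes), and 1 gene was lower at an unadjusted p under 0.05 (1.63% of all genes) and 0 higher (2.08% of all genes).

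That gene was *Btk*, the kinase that carries the signal of the B cell receptor and that myeloid cells also use. It read 77.0, 68.2 and 72.1 CPM in controls and 58.5, 61.1 and 58.2 CPM in hypertension, without overlap (log2 fold change -0.29, SE 0.13, unadjusted p = 0.0427, adjusted p = 0.951, edgeR quasi-likelihood). *Tcf3* read 275, 302 and 327 CPM in controls and 350, 412 and 436 CPM in hypertension (log2 fold change 0.41, SE 0.19, unadjusted p = 0.0520, adjusted p = 0.951, edgeR quasi-likelihood), and 177, 256 and 253 CPM in MI (log2 fold change -0.40, SE 0.19). The HTN libraries thus were above and the MI libraries below the controls for *Tcf3*. Of the early genes, *Igll1* (50.3, 32.0 and 32.1 CPM), *Vpreb1* (10.99, 7.79 and 8.41 CPM), *Vpreb2* (1.63, 1.49 and 1.00 CPM) and *Vpreb3* (57.8, 55.9 and 55.7 CPM) overlapped with controls. *Rag1* did too (2.09, 3.63 and 5.06 CPM). *Rag2* (2.04, 2.15 and 2.40 CPM) and *Dntt* (25.7, 24.5 and 22.8 CPM) were below each control, and *Il7r* read 18.7, 24.8 and 16.7 CPM.

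The receptor chains *Cd79a* (89.7, 93.9 and 113 CPM) and *Cd79b* (137, 138 and 134 CPM) overlapped with controls in hypertension. So did the mature genes *Ms4a1* (28.8, 41.6 and 52.8 CPM), *Cr2* (0.817, 2.67 and 3.25 CPM) and *Fcer2a* (4.31, 6.39 and 4.66 CPM). *Bank1*, a scaffold of B cell receptor signalling, read 20.9, 24.2 and 21.7 CPM, below each control (25.5, 29.2 and 28.2 CPM).

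In atherosclerosis, 17 of the 33 genes were lower than in controls (48.1% of all genes), the median log2 fold change was -0.04 against 0.01 over all genes, and it was 0.16 without control 2 and 0.06 without ApoE 4. Each ApoE library was below each control for 1 gene, *Blk* (4.45% of all genes), and above for 1, *Ikzf3* (5.06% of all genes). The quasi-likelihood test of edgeR called 0 of 33 and 0.144% of all genes, its likelihood-ratio test 0 of 33 and 0.506% of all genes, and DESeq2 called 0 members and 0.507% of all genes. At an unadjusted p under 0.05, 1 gene was lower (2% of all genes) and 0 higher (3.97% of all genes).

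The lower gene was *Bank1*, at 16.0, 21.2 and 25.6 CPM (log2 fold change -0.40, SE 0.18, unadjusted p = 0.0478, adjusted p = 0.831, edgeR quasi-likelihood). *Fcer2a* read 0.756, 1.94 and 6.47 CPM in atherosclerosis, a log2 fold change of -1.24 (SE 0.59), and *Cr2* 1.78, 1.12 and 3.51 CPM. For both genes ApoE 2 and ApoE 3 were below each control, and ApoE 4 was within their range or just above it. *Ms4a1*, with 59.6, 29.4 and 44.7 CPM, did not share this order. *Ikzf3*, which encodes Aiolos, read 26.4, 18.9 and 20.3 CPM in atherosclerosis and 13.5, 18.1 and 14.6 CPM in controls (log2 fold change 0.51, SE 0.24).

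Early genes in atherosclerosis overlapped with controls throughout. *Igll1* read 43.7, 34.7 and 19.6 CPM, *Vpreb1* 5.92, 8.16 and 4.99 CPM, *Vpreb2* 1.25, 0.940 and 0.560 CPM, and *Vpreb3* 37.7, 83.9 and 45.9 CPM. *Rag1* read 6.67, 4.05 and 2.75 CPM, *Rag2* 4.76, 3.41 and 3.97 CPM, *Dntt* 17.5, 27.7 and 31.2 CPM, and *Il7r* 32.9, 28.0 and 24.3 CPM. *Cd79a* (99.4, 86.6 and 67.7 CPM) and *Cd79b* (156, 152 and 130 CPM) also overlapped.

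**Figure D3:**
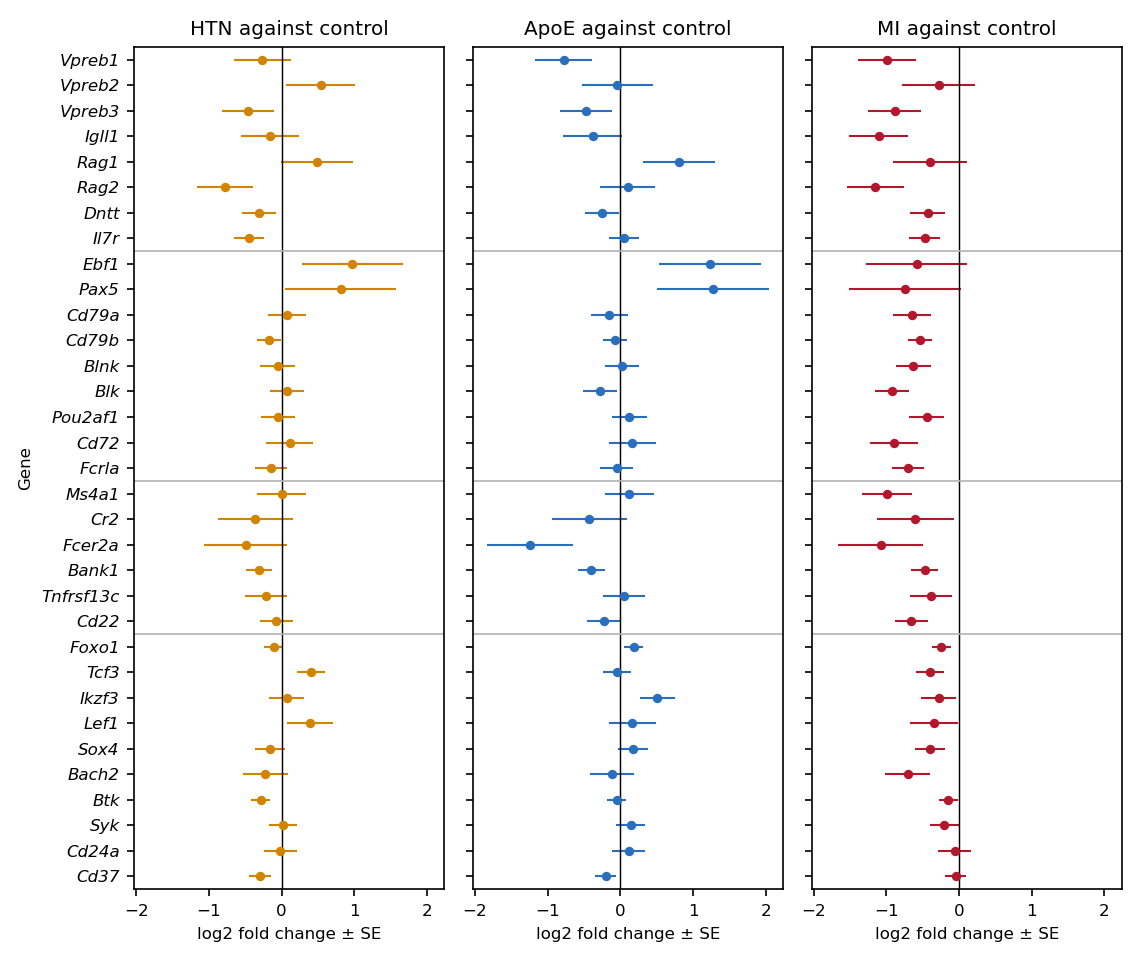
Log2 fold change ± SE of the 33 genes (rows, by stage) in hypertension, atherosclerosis and MI against the same 3 controls, from the fit of all 12 libraries. All 33 points are below 0 for MI, against 21 for hypertension and 17 for atherosclerosis.

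*Ebf1* and *Pax5* departed from the receptor genes in single libraries. *Ebf1* (GRCm38, chr11:44617317-45008091, plus strand) read 118, 125 and 323 CPM in hypertension and 529, 80.2 and 69.4 CPM in atherosclerosis, with the high values in HTN 4 and ApoE 2. *Pax5* (GRCm38, chr4:44524757-44710487, minus strand) read 32.2, 45.1 and 113 CPM in hypertension and 207, 39.9 and 14.9 CPM in atherosclerosis, high in the same libraries. Their log2 fold changes against controls were 0.97 (SE 0.70) and 0.81 (SE 0.77) in hypertension and 1.24 (SE 0.70) and 1.27 (SE 0.77) in atherosclerosis. Without HTN 4 the former fell to 0.34 and 0.10, and without ApoE 2 the latter turned to -0.35 and -0.39. *Cd79a*, *Cd79b* and *Blnk* lay within the range of the controls in both libraries, at 99.4, 156 and 51.4 CPM in ApoE 2 and at 113, 134 and 44.1 CPM in HTN 4.

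ApoE 2 and HTN 4 were the 2 highest of 12 libraries for 6 of the 33 genes, *Rag1*, *Ebf1*, *Pax5*, *Cd72*, *Ms4a1* and *Lef1*, and for 11.3% of all genes tested. Of the genes tested, those whose log2 level over the 12 libraries was most like that of *Ebf1* were *Sept11* (Pearson's r 0.976), *Mccc2* (0.971) and *Nup50* (0.968), and *Pax5* was the seventh (0.964). The values describe 12 libraries that share the 2 high ones. *Ebf1* and *Pax5* are longer than 91.4% and 88.7% of the genes tested. For 4 equal classes of gene length, levels were taken as log2 differences from the control mean. The longest class minus the shortest was 0.26 in ApoE 2, 0.21 in ApoE 4 and 0.04 in HTN 4. ApoE 4, close to ApoE 2 in this measure, held the lowest ApoE values of *Ebf1* and *Pax5*, and the part of length was not tested. An antisense gene inside *Ebf1*, *Gm12158*, was also highest in ApoE 2 (10.1 CPM) and HTN 4 (7.66 CPM), at 0.994 to 7.11 CPM elsewhere.

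The stages were set against each other in each library as the mean log2(CPM + 0.5) of the 8 early genes minus that of the 6 mature genes. The difference was -0.06 ± 0.43 in controls, 0.02 ± 0.25 in hypertension, 0.21 ± 0.62 in atherosclerosis and -0.07 ± 0.14 in MI (SD, n = 3 each). Controls spanned -0.36 to 0.43, which held each MI and HTN library, and ApoE libraries lay on both sides of them, from -0.51 to 0.61. Against controls the shift was 0.08 in hypertension, 0.27 in atherosclerosis and -0.01 in MI, each less than the SD of the controls. Without *Rag1*, *Rag2* and *Il7r* among the early genes, the shift in atherosclerosis was 0.02. In MI the early genes averaged 2.91 ± 0.57 and the mature genes 2.98 ± 0.44, against 3.61 ± 0.36 and 3.66 ± 0.07 in controls, so the means of both stages were lower. No test was made on these means, as the genes had been listed with results known.

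**Figure D4:**
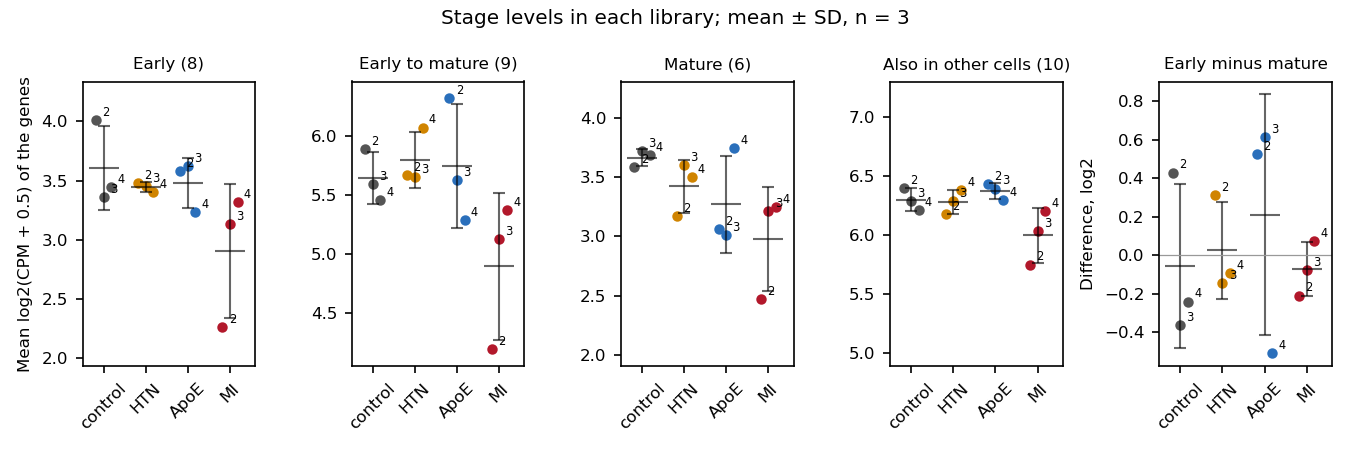
Mean log2(CPM + 0.5) of the genes of each stage, and the early minus the mature mean, in each library (points with replicate numbers) with the group mean ± SD (n = 3). The first 4 panels span the same range of log2 units around different centers, and MI 2 is the lowest library in each of them, while the early minus mature difference of MI lies within the controls' range.

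Pairs of genes, 4 from different stages and 1 of early genes (*Igll1* with *Vpreb3*), were correlated over the 12 libraries, 5 pairs in all, on the log2 scale with permutation p-values. *Igll1* went with *Cd79a* (Pearson's r = 0.888, adjusted p = 0.0058, Spearman's rho = 0.734, adjusted p = 0.0225) and *Cd79a* with *Ms4a1* (r = 0.854, adjusted p = 0.0146, rho = 0.671, adjusted p = 0.0381). Without control 2 and MI 2, the libraries farthest from the median of the first gene, r was 0.573 and 0.589, and within groups, as deviations from group means, 0.809 and 0.761. *Igll1* with *Vpreb3* (r = 0.769, adjusted p = 0.0225, rho = 0.608, adjusted p = 0.0510) and *Igll1* with *Ms4a1* (r = 0.685, adjusted p = 0.0428, rho = 0.364, adjusted p = 0.244) rested on these libraries, with r of 0.103 and 0.0962 without them, and 0.664 and 0.446 within groups. *Cd79a* with *Foxo1* had r = 0.628 (adjusted p = 0.0428, rho = 0.559, adjusted p = 0.0691), 0.325 without the same libraries and 0.892 within groups.

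Between disease groups, 12 of the 33 genes were lower in MI than in hypertension at an unadjusted p under 0.05 (4.23% of all genes) and 0 higher (4.18% of all genes). Against atherosclerosis 15 were lower (7.36% of all genes) and 0 higher (5.34% of all genes). Without MI 2 the lower genes numbered 4 and 6 (2.42% and 5.47% of all genes), and 6 against hypertension without HTN 4 (2.25% of all genes). The quasi-likelihood test of edgeR called 0 of 33 in both comparisons (0% and 0.269% of all genes), and its likelihood-ratio test 0 (0.0125% and 1.71% of all genes). DESeq2 called 2 in MI against hypertension, *Blk* and *Tcf3*, both at an adjusted p of 0.0497 (0.175% of all genes), and 0 against atherosclerosis (2.16% of all genes). It gave *Vpreb2* no adjusted p against hypertension. Over all alternatives these p-values ranged from 0.00780 to 0.985 and from 0.00971 to 0.985. Their quasi-likelihood log2 fold changes were -1.004 (SE 0.24) and -0.80 (SE 0.19), each with an adjusted p of 0.520, and *Blk* read 12.2, 11.5 and 18.2 CPM in hypertension.

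The smallest p against atherosclerosis was that of *Foxo1*, a factor that drives *Rag1* and *Il7r* in early B cells. It read 30.5, 27.6 and 25.6 CPM in atherosclerosis, 19.2, 20.6 and 22.1 CPM in MI, 22.3, 22.6 and 23.2 CPM in hypertension and 26.7, 23.9 and 23.0 CPM in controls. Its log2 fold change between MI and atherosclerosis was -0.43 (SE 0.13, unadjusted p = 0.00576, adjusted p = 0.210, edgeR quasi-likelihood). Between atherosclerosis and hypertension, 1 gene was lower, *Tcf3* at a log2 fold change of -0.46 (SE 0.19, 2.08% of all genes), and 3 were higher, *Rag2*, *Il7r* and *Foxo1* (3.86% of all genes). The edgeR tests called 0 there, against 0.0625% of all genes by quasi-likelihood and 0.438% by likelihood ratio, and DESeq2 0, against 0.476%.

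A list of 49 other genes of the B cell pathway, among them kinases, cytokine receptors and repair enzymes of recombination, was read beside the 33. All 49 were tested. The quasi-likelihood test called 1 between MI and atherosclerosis (0.269% of all genes) and 0 in the other 5 comparisons (0% to 0.144% of all genes). After MI, 37 of 49 were below controls (50% of all genes), and the median log2 fold change was -0.18 (0.00 over all genes). In 11 each MI library was below each control (4.59% of all genes), and 7 were lower at an unadjusted p under 0.05 (1.57% of all genes). Among the 3 with the smallest p were *Spib*, a factor of B cells and plasmacytoid dendritic cells (-1.11, SE 0.25), and *Fyn*, a Src-family kinase (-0.40, SE 0.12), each with an adjusted p of 1.00.

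*Fyn* was the gene called, lower in MI than in atherosclerosis by a log2 fold change of -0.83 (SE 0.12, adjusted p = 0.0152, edgeR quasi-likelihood) with no overlap. Left out singly, MI 2, MI 3, MI 4 or ApoE 4 took its adjusted p to between 0.0515 and 0.0690, and it was 0.267 in a fit of these groups alone. In hypertension the pathway genes with the smallest p were *Stat5a*, a transducer of the interleukin-7 receptor (-0.34, SE 0.15), *Ly6d* (-0.47, SE 0.24) and *Pik3ap1* (-0.37, SE 0.20). In atherosclerosis they were *Fyn* (0.44, SE 0.12), *Cd38* (0.71, SE 0.24) and *Bcl11a* (0.45, SE 0.19), at adjusted p of 0.410 to 0.824. Of the 49, 31 were lower in hypertension (51.9% of all genes) and 18 in atherosclerosis (48.1% of all genes). Medians were -0.07 and 0.10, against -0.01 and 0.01 over all genes.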

How the data were processed

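Marrow endothelium was sorted by flow cytometry, and polyadenylated RNA was sequenced as strand-specific single-end libraries. The authors aligned the reads with STAR 2.7.3a to GRCm38.p6 and deposited raw counts per Ensembl gene, made with the gene counting of STAR, without normalization. The strand setting of the counts is not given in the sources used here. All 12 columns were used. GENCODE M21 gave symbols and positions for 55240 of 55421 genes, exon lengths and the printed transcripts.

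Counts were fitted in R 4.3.3 with edgeR 4.0.16 (filterByExpr, 15999 genes kept, TMM, 1 coefficient per group over 12 libraries, 8 residual degrees of freedom, glmQLFTest, two-sided, Benjamini-Hochberg over all genes kept, called at an adjusted p under 0.05). The SE was obtained by dividing the log2 fold change by the root of F. The steps were run on simulated data, with planted changes larger than the members' median difference in MI. That run does not show whether differences of the members' median size would be called. CPM are TMM-scaled, with 0.5 added on the log2 scale for means over genes. Correlations used 100000 permutations (scipy 1.17.1). The likelihood-ratio test, DESeq2 1.42.0 and the other alternatives are given in the closing section.

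The 33 genes, the stages, the pathway and marker lists and the tests were chosen with earlier results of these data known. Values in every library are given for 15 genes of a fixed list and for each member with the smallest p in a comparison, and the other pathway genes named are those called or with the 3 smallest p-values against controls, of which 1 is not reported here. *Gm12158*, *B230118H07Rik* and any further gene named were picked with their values in view. The 3 libraries of a group are from separate mice. With 3 against 3, precision is limited by the spread between mice and, for genes with few counts, by counting as well. *Vpreb2*, for example, had 6 to 36 counts per library.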

Additional observations from a re-analysis of the deposited data

Results flagged for a closer look

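*Tcf3* was set apart because its hypertension and MI libraries moved to opposite sides of the controls. Every HTN library was above each control (9.02% of all genes) and every MI library below (4.59% of all genes). The log2 fold change of MI against hypertension was -0.80 (SE 0.19, unadjusted p = 0.00102, adjusted p = 0.520, edgeR quasi-likelihood), so the direct comparison did not pass the threshold, and the adjusted p was 0.117 by the likelihood-ratio test and 0.0497 by DESeq2. Over all alternatives the adjusted p ranged from 0.00971, with no filter on low counts, to 0.985, without HTN 4. It was -0.58 without MI 2, HTN 4 and ApoE 2.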

How the results depend on the processing

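The count of members called was 0 under the main test in all 6 comparisons, and also with the likelihood-ratio test, RLE size factors, a fit of only the compared groups, a minimum of 10 counts per library and each library left out in turn. Without the filter on low counts it was 2 in hypertension (*Ebf1* and *Pax5*), 3 in atherosclerosis (*Ebf1*, *Pax5* and *Fcer2a*) and 4 in MI (*Igll1*, *Ms4a1*, *Cd72* and *Vpreb3*) against controls, 8 in MI against hypertension and 8 in MI against atherosclerosis, among 170, 432, 130, 422 and 790 of 36003 genes. In that fit the prior degrees of freedom were infinite, against 5.08 in the main fit, so that each gene took the spread of the trend and its own spread did not count. DESeq2 called 2 in MI against hypertension. With ApoE 2, HTN 4 and MI 2 left out together, an alternative added after the data were seen, the count was 0 throughout and the median log2 fold change in MI against controls -0.36.

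*Vpreb2* in MI changed sign without those 3 libraries (0.0792) and ranged from -0.74 to 0.0796 with single libraries left out, *Rag1* in MI from -0.82 to 0.0759 and *Cd24a* in MI from -0.20 to 0.0537. In atherosclerosis *Ebf1* was -0.36 and *Pax5* -0.40 without the 3 libraries, and they ranged from -0.35 to 1.66 and from -0.39 to 1.77 with single libraries left out.

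Correlations fell without control 2 and MI 2, to r of 0.103 for *Igll1* with *Vpreb3*, 0.573 with *Cd79a* and 0.0962 with *Ms4a1*, and to 0.589 and 0.325 for *Cd79a* with *Ms4a1* and *Foxo1*. Without MI 2 alone, also added after the data were seen, they were 0.514, 0.708, 0.170, 0.576 and 0.412. As deviations from group means, *Igll1* with *Ms4a1* gave 0.446 and *Cd79a* with *Foxo1* 0.892. The early minus mature shift changed sign under at least 1 alternative in each disease, while moving by less than the SD pooled over the 2 groups. With CPM summed per stage it was -0.14 in hypertension, -0.13 in atherosclerosis and -0.04 in MI, and with single libraries left out it ranged from -0.07 to 0.33, from 0.07 to 0.63 and from -0.16 to 0.23, with the highest value in MI without control 2. Without *Rag1*, *Rag2* and *Il7r* among the early genes the shift was 0.12 in hypertension, 0.02 in atherosclerosis and -0.06 in MI. *Vpreb2*, with as few as 6 counts in a library, was removed by the minimum of 10.

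The replicate numbers did not pair the libraries: of 18 same-number pairs, 6 had a correlation of deviations above 0.1 (range -0.34 to 0.34), and 4 of 12 libraries had their best match under their own number. A fit with the replicate number as a block (replicate block) called 0 members in each comparison, against 0.0438% of all genes in atherosclerosis against controls and against hypertension, 0.138% in MI against atherosclerosis and 0% in the other 3.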
